A study of Homo sapiens with 8 samples.

Results

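The α-satellite arrays of chromosomes 11 and 17 were compared for CENP-B binding in control and *ERCC6L2*-/- U2OS cells. Their members were the 1 kb windows, counted from the first position of each chromosome, with at least 1 base of coverage in either group. There were 4203 such windows, 3255 on chromosome 11 and 948 on chromosome 17, out of 35604 windows with coverage over all sequences. U2OS is a human osteosarcoma line. The knockout carried a CRISPR/Cas9 disruption of *ERCC6L2*, which codes for a SNF2-family protein, and was grown as clones from single cells, while control cells kept the gene. Which clone was used for chromatin immunoprecipitation is not given in the sources used here, so effects of the knockout and of a clone cannot be told apart. In both groups chromatin was cross-linked with formaldehyde, digested with micrococcal nuclease and immunoprecipitated with an antibody against CENP-B. Each group had 3 immunoprecipitates and 1 input library. The deposited values were 1 whole number of reads per base and group. The study describes its plotted tracks as averages over triplicates, and whether the deposited numbers are averages or sums is not given in the sources used here. They carried no replicate error, so no test between the groups was possible, and every ratio below compares 1 pooled value with 1 other. The depth of the libraries is unknown.

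CENP-B recognizes the CENP-B box, a short motif found in some of the monomers that make up α-satellite DNA. Monomers are arranged side by side into higher-order repeat units, and a unit is copied many times over with few differences between copies, which gives each chromosome an array with its own unit. Chromosomes 1, 11, 17 and X share a family of arrays thought to descend from an ancestral unit of 5 monomers. In the GRCh38 assembly these arrays are modelled sequence, so the order of copies along them is not the order in a real chromosome. Coverage is the number of reads over a base, and a base was called covered when this number was above 0. Regions were called separately in each group, and bases outside a group's regions counted as 0.

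The boxes and monomers that carry the coverage are shown first, with the fixed positions of the box in capitals. The box was searched on both strands of GRCh38 as nTTCGnnnnAnnCGGGn, where n stands for any base. It was present in 98.8% of the covered windows of chromosome 11 and in 98.5% of those of chromosome 17. Of the other windows within 100 kb of the covered span, 74.7% of 91 on chromosome 11 and 90.9% of 3170 on chromosome 17 held a box. A box was therefore common in uncovered windows near the covered ones too. Away from the arrays, 0.0724% of the 1 kb windows of chromosome 11 and 0.0813% of those of chromosome 17 held a box. The 3 commonest forms on each chromosome, 1 of them common to both, were:
Chromosome 11, 3410 copies: tTTCGttggAaaCGGGt
Chromosome 11, 3135 copies, and chromosome 17, 5976 copies: tTTCGttggAaaCGGGa
Chromosome 11, 86 copies: tTTCGttggAaaCGGGc
Chromosome 17, 2671 copies: cTTCGttcgAaaCGGGt
Chromosome 17, 1296 copies: aTTCGttggAaaCGGGa
The arrays thus shared the form ending in a, which made up 46.0% of the boxes on chromosome 11 and 57.5% on chromosome 17. The form ending in t that made up 50.0% of the boxes on chromosome 11 accounted for 0.116% on chromosome 17. The form cTTCGttcgAaaCGGGt, with 25.7% of the boxes on chromosome 17, accounted for 0.543% on chromosome 11.

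Whole monomers, read from the first base of a box, show what surrounds it. The first pair comes from the unit copy of chromosome 11 closest to the consensus, at chr11:51354979-51355149 and chr11:51355491-51355661 on the plus strand. Next is a monomer of chromosome 17 at chr17:23253028-23253198 on the plus strand, chosen in the same way among copies covered in both groups. The last is at chr17:26883946-26884116 on the minus strand. It lies partly in the window with the highest control coverage of either chromosome, after which it is named, and partly in the window before.
Chromosome 11, first box: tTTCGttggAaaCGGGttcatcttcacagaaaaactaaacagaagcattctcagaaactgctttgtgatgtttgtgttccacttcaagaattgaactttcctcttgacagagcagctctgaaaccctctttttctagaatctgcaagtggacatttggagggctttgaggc
Chromosome 11, second box: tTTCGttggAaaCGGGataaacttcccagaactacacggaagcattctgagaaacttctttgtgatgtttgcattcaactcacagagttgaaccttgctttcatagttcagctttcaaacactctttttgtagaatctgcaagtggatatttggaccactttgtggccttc
Chromosome 17, array: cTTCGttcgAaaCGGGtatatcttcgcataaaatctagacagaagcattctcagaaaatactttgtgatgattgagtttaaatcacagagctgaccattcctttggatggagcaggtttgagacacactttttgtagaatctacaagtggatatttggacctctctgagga
Chromosome 17, highest window: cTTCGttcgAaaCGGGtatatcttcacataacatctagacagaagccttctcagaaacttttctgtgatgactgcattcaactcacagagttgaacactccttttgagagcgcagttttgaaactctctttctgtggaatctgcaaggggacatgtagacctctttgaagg
Compared position by position without gaps, the first monomer of chromosome 11 and the array monomer of chromosome 17 were equal at 132 of 171 positions. The monomer from the highest window was equal to the array monomer of the same chromosome at 138 of 171 positions and to the first monomer of chromosome 11 at 131. The second monomer of chromosome 11 was equal to the first at 56 positions. It was equal to the array monomer of chromosome 17 at 49 and to that of the highest window at 55. A comparison without gaps does not allow for inserted or missing bases. Mean coverage over the monomers of chromosome 11 was 132 reads in control cells against 74.1 in the knockout for the first, and 252 and 137 reads for the second. Over the array monomer of chromosome 17 it was 11.3 and 8.05 reads, and over the monomer of the highest window 64389 and 45997 reads.

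The name pentameric array held for the unit length of chromosome 11 but not for that of chromosome 17. Distances between successive copies of 24-base words gave a unit of 850 bases on chromosome 11, with 61.2% of all distances within 5 bases of it. Monomers repeated at a distance of 171 bases on both chromosomes, so this unit holds 5 of them. On chromosome 17 the distances gathered at 2716 bases, with 27.9% of them, at 2203 bases, with 18.1%, and at 2379 bases, with 8.50%. These lengths correspond to 16, 13 and 14 monomers. A box site was a position with a box in at least 50% of the copies. The unit of chromosome 11 had 2 such sites, 512 bases apart, and the units of chromosome 17 had 8, 7 and 6, respectively. Copies of the unit on chromosome 11 were on average 98.2% identical to their consensus. For the units of 2716, 2203 and 2379 bases on chromosome 17 this was 83.2%, 90.2% and 72.6%, so their box sites rest on less alike copies. The sequences between runs of unknown bases that hold covered windows had 6814 boxes on chromosome 11, a density of 2.04 per kb, and 10387 boxes on chromosome 17, a density of 2.55 per kb.

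The arrays differed in how much of them was covered. In control, 3243895 bases were covered on chromosome 11 and 897613 bases on chromosome 17. In *ERCC6L2*-/- cells the covered length was 3226576 bases on chromosome 11, or 99.5% of that in control, and 348024 bases on chromosome 17, or 38.8%. The regions listed for chromosome 11 formed 1 contiguous stretch of 3254094 bases in control, not every base of which had a value above 0, and 2 in *ERCC6L2*-/- cells, separated by a gap of 878 bases, whereas chromosome 17 had 41 separate control stretches with a median length of 21821 bases and a median gap of 41899 bases. In the knockout the stretches of chromosome 17 numbered 32, and their median length was 8957 bases. Of the boxes in the array of chromosome 11, 98.7% had coverage in control and 98.4% in *ERCC6L2*-/- cells. On chromosome 17 these shares were 22.9% and 8.90%.

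**Figure D1:**
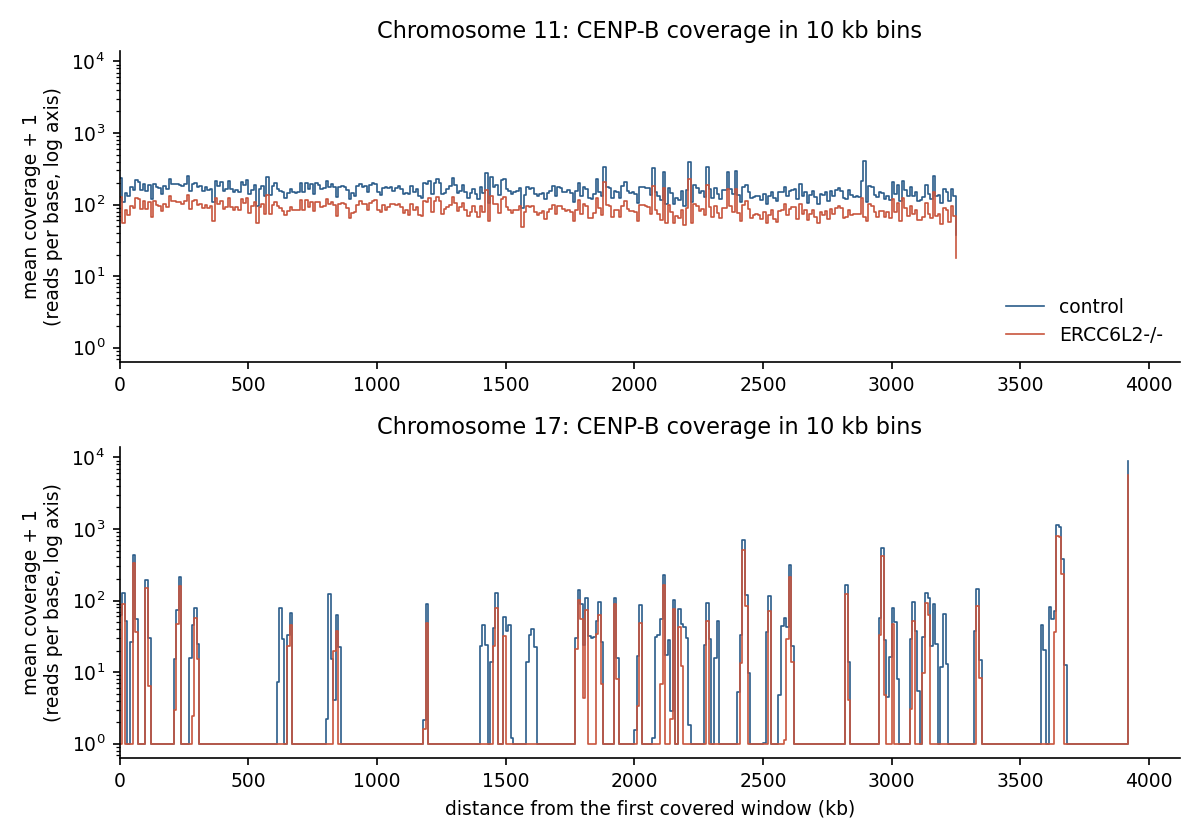
Mean CENP-B coverage plus 1 in 10 kb bins (reads per base, log axis) against the distance from the first covered window of each chromosome in kb, for control (blue) and *ERCC6L2*-/- cells (red), each 1 pooled value. Chromosome 11 has coverage in every bin in both groups with the red line below the blue one, and its last bin is only partly inside the array. Chromosome 17 has 41 separate control stretches, some of them too close to each other to be told apart in bins of 10 kb. Several have no red counterpart, and the highest coverage is at the far end.

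They also differed in depth. Depth was not corrected by the input libraries or for the number of array copies in the cells. It is therefore not a measure of binding per copy. The median window on chromosome 11 had a mean of 140 reads in control cells against 77.4 in the knockout. The median covered window of chromosome 17 had 36.5 reads in control cells against 30.4 in the knockout, and in the latter group 381 of the 948 windows were covered at all. A mean over the bases gave another order, with 162 reads on chromosome 11 and 215 reads on chromosome 17 in control, because a few windows of chromosome 17 were extremely high. Windows with a control mean above 1000 reads numbered 7 on chromosome 11 and 22 on chromosome 17. The top 1% of windows held 5.48% of the summed control coverage of chromosome 11 and 59.9% of that of chromosome 17. In *ERCC6L2*-/- cells these shares were 5.42% and 67.2%.

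Coverage along chromosome 11 was even. The coefficient of variation of its window means was 0.706 in control and 0.711 in *ERCC6L2*-/- cells, and the 90th percentile was 3.30 and 3.52 times the 10th. In each of its 32 full bins of 100 kb, between 99.1% and 99.9% of the bases were covered in control. Bin means ran from 137 to 191 reads in control and from 74.8 to 109 reads in *ERCC6L2*-/- cells. The coefficient of variation on chromosome 17 was 6.96 in control and 7.74 in *ERCC6L2*-/- cells, and 1.66 and 3.23 without the windows above 1000 reads in either group. Among covered windows, the 90th percentile was 7.21 times the 10th in control and 25.1 times in *ERCC6L2*-/- cells. Of the 38 bins of 100 kb in its span, 28 had any coverage, and the covered share of a covered bin ran from 4.07% to 65.1% in control.

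**Figure D2:**
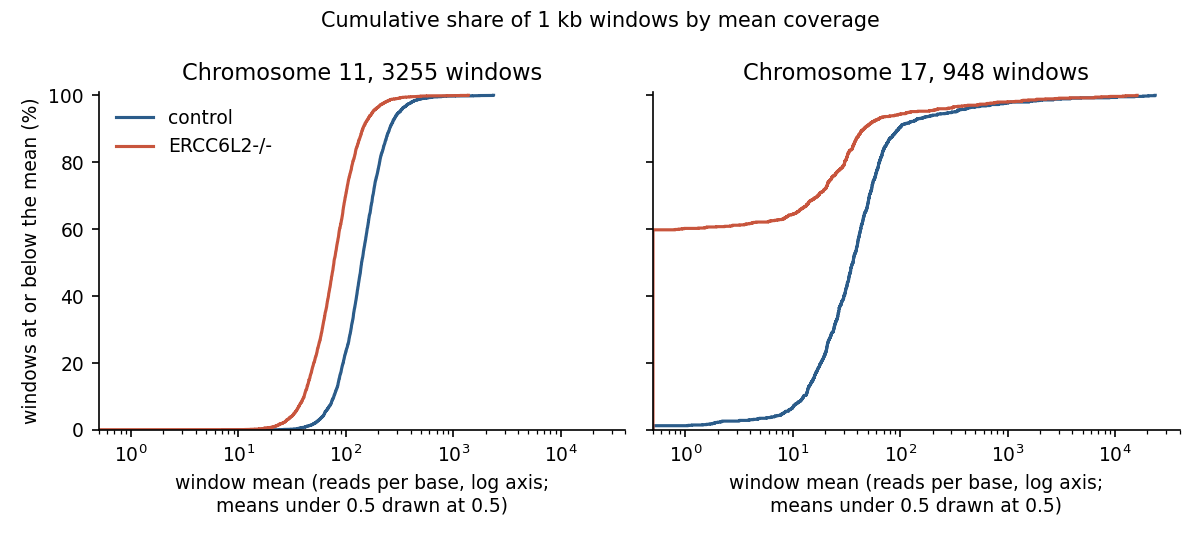
Cumulative share of 1 kb windows (%) at or below a given mean coverage (reads per base, log axis) for control (blue) and *ERCC6L2*-/- cells (red). On chromosome 11 the curves are parallel, with medians of 140 and 77.4 reads. On chromosome 17 the red curve starts near 60% because 567 windows had coverage in control only, and both curves end in a long tail above 1000 reads.

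Over chromosome 11, coverage as deposited was lower in *ERCC6L2*-/- cells by a similar factor in every bin of 100 kb. The log2 ratio of summed coverage, knockout over control, was -0.85. With the total coverage of the groups made equal, this direction turned, to 0.26 on chromosome 11 and 0.36 on chromosome 17, and the ratios over shared bases became 0.27 and 0.55. Scaling to the shared bases of all other chromosomes gave -0.24 over the shared bases of chromosome 11 and 0.0375 over those of chromosome 17. Every lower value or reduction given here therefore refers to the values as deposited. Neither scaling uses library depth. The total is the coverage of the called regions, so making it equal removes any reduction common to all sequences. The 3224115 bases that were covered in each group averaged 162 reads in control cells against 90.3 in the knockout, a log2 ratio of -0.85. In the 32 bins of 100 kb this ratio stayed between -0.88 and -0.81. The array is interrupted in the assembly by short runs of unknown bases, and the longest sequence between them, chr11:52369019-53216710, had a mean of 162 reads in control cells against 89.8 in the knockout, a log2 ratio of -0.85. The highest control mean of such a sequence was 176 reads, at chr11:51120734-51622621, and the lowest 139 reads among those inside the array, at chr11:53531807-53986855, with log2 ratios of summed coverage of -0.82 and -0.86. At its edges the array ended abruptly. The flanking sequences chr11:51078349-51090317 and chr11:54342500-54425074 were covered over 1.32% and 2.04% of their length in control and not at all in *ERCC6L2*-/- cells, although they hold 10 and 77 boxes. Among the 3251 windows covered over at least 50% of their length in both groups, the median log2 ratio, computed with 1 read added to each mean, was -0.85 with an SD of 0.145 between windows. Windows that were high in control were also high in *ERCC6L2*-/- cells, with a Spearman's rho of 0.99 over these windows, which share their libraries.

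Chromosome 17 lost covered length as well as depth in the values as deposited. Its log2 ratio was -0.76 in summed coverage and -1.37 in covered length. The former became -1.17 with coverage capped at 760 reads and -1.46 without the windows above 1000 reads. Of the drop in summed coverage, 69.6% fell on bases covered in each group and 30.6% on the 556496 bases covered in control only, which held 12.5% of the control sum, with a small gain elsewhere. On chromosome 11, 98.8% of the drop fell on bases covered in each group. The 341117 bases that were covered in each group averaged 495 reads in control cells against 334 in the knockout, a log2 ratio of -0.57. The median log2 ratio of the 346 windows covered over at least 50% in both groups was -0.60, with an SD of 0.171. The longest sequence of its array, chr17:23195019-25684802, was covered over 22.6% of its length in control and 8.43% in *ERCC6L2*-/- cells, with a log2 ratio over shared bases of -0.51. In 25 full bins of 100 kb with coverage in both groups, the ratio over shared bases ran from -0.75 to -0.40, and so did not overlap the range of chromosome 11. These windows are those that passed the peak threshold in both groups, which on chromosome 17 is a minority. Over these selected bases the log2 ratio was 0.28 higher on chromosome 17 than on chromosome 11. That difference does not move when either group is rescaled, and became 0.44 with coverage capped at 760 reads.

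A ratio under 0.5 was found in 303 windows of chromosome 11, or 9.31%, and in 592 windows of chromosome 17, or 62.4%, against 44.6% of the windows of the whole series. A ratio over 2 was found in 0 windows of chromosome 11 and in 7 windows of chromosome 17, or 0.738%, against 0.424% in the whole series. Coverage in control only was found in 2 windows of chromosome 11 and 567 of chromosome 17. Among the windows covered over at least 50% in both groups, the order of the chromosomes turned around, with 301 windows of chromosome 11, or 9.26%, and 7 windows of chromosome 17, or 2.02%, under 0.5, against 6.43% in the whole series. The count under 0.5 over all windows of chromosome 11 fell to 4 with scaling to total coverage and to 60 with 10 reads added to each mean, whereas that of chromosome 17 was 574 and 532. With no replicates, these counts describe the pooled values only.

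**Figure D3:**
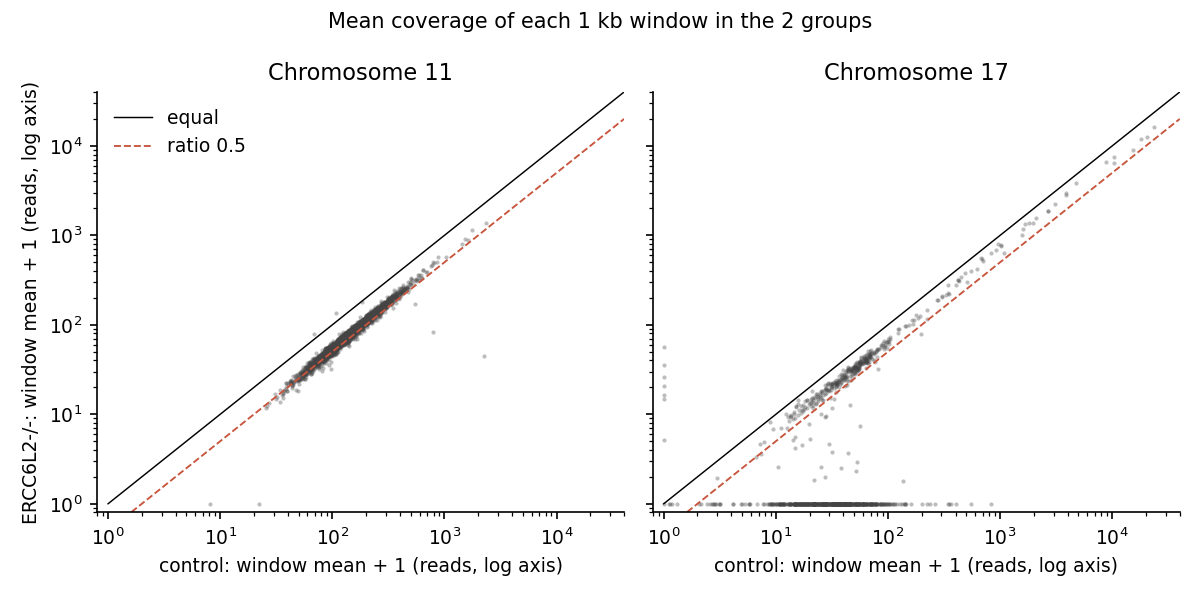
Mean coverage plus 1 of each 1 kb window (reads, log axes) in control (x axis) and *ERCC6L2*-/- cells (y axis). The solid line marks equal values and the dashed line a ratio of 0.5. On chromosome 11 the 3255 windows form a single band close to the dashed line, with 3 windows well below it and 2 at 0 in the knockout, and on chromosome 17 the 374 windows covered in both groups form a band that lies closer to the solid line, while 567 windows lie at 0 in *ERCC6L2*-/- cells and 7 at 0 in control.

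Because windows of chromosome 17 had lower control coverage, the ratios were also set side by side at like levels. Among windows with a control mean of 50 to 100 reads, 703 of 704 on chromosome 11 but 108 of 218 on chromosome 17 were covered over at least 50% in both groups. Over all windows of this level the median log2 ratio was -0.89 on chromosome 11 and -1.17 on chromosome 17, where 105 windows had no coverage in the knockout. Over the windows covered in both groups it was -0.89 and -0.62, with SDs of 0.125 and 0.115 between windows. With a control mean of 100 to 200 reads, the median over windows covered in both groups was -0.85 over 1777 windows and -0.60 over 17 windows, while 16 of the 34 windows of chromosome 17 had no coverage in the knockout. From 25 to 50 reads, 216 of 337 windows of chromosome 17 had none, against 0 of 56 on chromosome 11. At these levels, the order of the chromosomes thus depended on whether windows without coverage in *ERCC6L2*-/- cells were included. Keeping windows covered in both groups selects on the outcome on chromosome 17 and hardly on chromosome 11, so the smaller reduction there cannot be told apart from that selection. On chromosome 11 the median ratio rose with the level, from -0.99 over the 55 windows of 25 to 50 reads to -0.82 over 708 windows of 200 to 1000 reads.

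Stretches of chromosome 17 that kept coverage in *ERCC6L2*-/- cells tended to be higher in control. Of the 41 control stretches, 31 had some coverage in *ERCC6L2*-/- cells, with control means from 46.7 to 15842 reads and a median of 89.96 reads. The other 10 had none, with control means from 35.6 to 89.0 reads and a median of 53.7 reads. Within each of the 31 stretches, control coverage was higher over the bases that were covered in *ERCC6L2*-/- cells than over those that were not. Bases counted as covered only inside the regions called in a group, and windows high in 1 group were high in the other. The calling of regions would thus by itself give both of these orders, so they are description only. All 32 stretches of the knockout overlapped a control stretch, and 26 of them were covered in control over at least 99% of their length. The share of a control stretch that was also covered in *ERCC6L2*-/- cells had a median of 34.98% over all 41 and of 54.0% over the 31 with any.

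**Figure D4:**
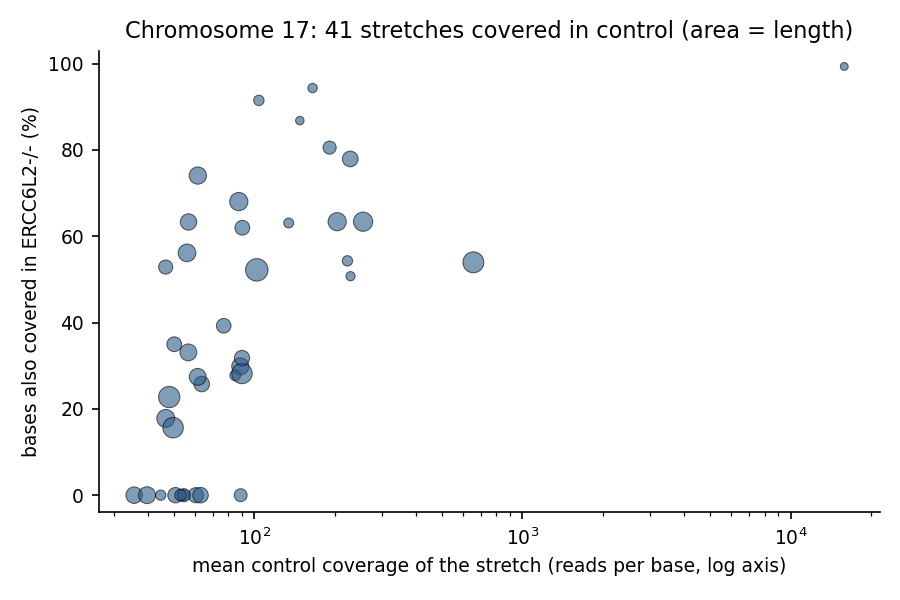
The 41 stretches of chromosome 17 covered in control, each a point with an area proportional to its length, by mean control coverage (reads per base, log axis) and the share of their bases also covered in *ERCC6L2*-/- cells (%). The 10 stretches at 0% have control means from 35.6 to 89.0 reads, and the stretch with the highest mean, 15842 reads, is covered almost fully in both groups.

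Windows covered in control only had lower control coverage than those covered in both groups, with medians of 31.2 and 48.9 reads. Region calling alone would give this order too. The windows covered in control only did not have fewer boxes. The mean number of boxes per window was 2.65 in windows covered in control only, 2.59 in windows covered in both groups and 2.52 in the 3125 windows of the array covered in neither. The longest run of windows covered in control only was chr17:24778001-24811000, with 33 windows and a mean of 29.9 reads. Coverage in *ERCC6L2*-/- cells only was limited to 7 windows, of which 6 formed a run at chr17:23791001-23797000 with a mean of 27.3 reads. That run borders a stretch covered in both groups. By unit, 22.0% of the windows with the 2716-base unit, 22.8% of those with the 2203-base unit and 30.8% of those with the 2379-base unit were covered in control. Covered windows in *ERCC6L2*-/- cells numbered 119 of 1700, 79 of 988 and 78 of 464, respectively. A further 921 windows had no unit, because less than 20% of their 24-base words repeated at any of these distances. Of these, 21.6% were covered in control and 105 windows in *ERCC6L2*-/- cells.

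The highest coverage of either chromosome lay at the far end of the covered span of chromosome 17, on a short sequence of 5626 bases between runs of unknown bases, chr17:26880355-26885980. It holds 7 boxes. Its mean was 15920 reads in control cells against 10105 in the knockout, a log2 ratio of -0.66, and it held 46.4% of the control coverage and 49.8% of the knockout coverage of the chromosome. Its highest window, chr17:26884001-26885000, had means of 23648 and 16055 reads. The 3 windows with the highest control means of the chromosome reach into this short sequence, and none of them had a unit of the lengths found. Upstream of this short sequence, the sequences chr17:26592687-26616164 and chr17:26616265-26627010 had means of 518 and 1312 reads in control and 360 and 924 reads in *ERCC6L2*-/- cells. These 3 sequences made up 4.43% of the bases covered in control but 59.9% of the summed coverage. Without them, the log2 ratio on chromosome 17 was -0.99 for summed coverage and -0.48 over shared bases. The sequences to either side of the upstream pair, chr17:26570015-26592586 and chr17:26627350-26638554, were covered over 98.3% and 51.2% of their length in control and had no coverage in *ERCC6L2*-/- cells.

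Chromosome 11 had 1 site where the groups parted sharply. At chr11:53986956-53987116, a stretch of 161 bases that begins right after a run of 100 unknown bases in the assembly, control coverage averaged 17306 reads and *ERCC6L2*-/- cells had none. The knockout lacked coverage from 53986600 to 53987477. In the window chr11:53987001-53988000 the means were 2233 and 43.3 reads, a log2 ratio of -5.66, the lowest of the chromosome. The window before it, chr11:53986001-53987000, was at -3.26, and the third lowest, chr11:52128001-52129000, at -1.69, also includes a run of unknown bases. Over all 10 windows of chromosome 11 that reach within 100 bases of such a run and were covered over at least 50% in both groups, the median was -0.89, against -0.85 in the others, so most of them did not stand apart. Coverage was higher in *ERCC6L2*-/- cells in the window chr11:52157001-52158000, with 108 reads in control and 135 reads in the knockout, and in chr11:52088001-52089000, with 67.9 and 76.9 reads. The highest control window, chr11:53307001-53308000, had 2370 and 1382 reads. For chromosome 17, the log2 ratios of windows covered over at least 50% in both groups ran from -1.54, at chr17:24760001-24761000, to -0.12, at chr17:23797001-23798000.

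Within the repeat unit of chromosome 11, coverage followed the same shape in both groups. Of 2356 copies of the unit, 2024 were covered throughout in both, and these were aligned on the first box, which 89.8% of all copies carry. The second box lies 512 bases further on and is carried by 86.0% of all copies. In control, median coverage was lowest, at 92 reads, 343 bases after the middle of the first box, and highest, at 196 reads, 764 bases after it, a 2.13-fold range. In *ERCC6L2*-/- cells it ran from 47 to 117 reads, a 2.49-fold range, with its extremes at 341 and 755 bases. At the middle of the first box the median was 125 reads in control and 76 reads in the knockout, and at the second 126 and 72 reads. The log2 ratio of the medians varied along the unit from -1.10, at 376 bases, to -0.71, at 845 bases. The reduction was therefore largest between the first and the second box, and smallest shortly before the first box of the next copy. Copies of chromosome 17 units covered throughout in both groups were too few for such a profile, with at most 7 per unit length.

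**Figure D5:**
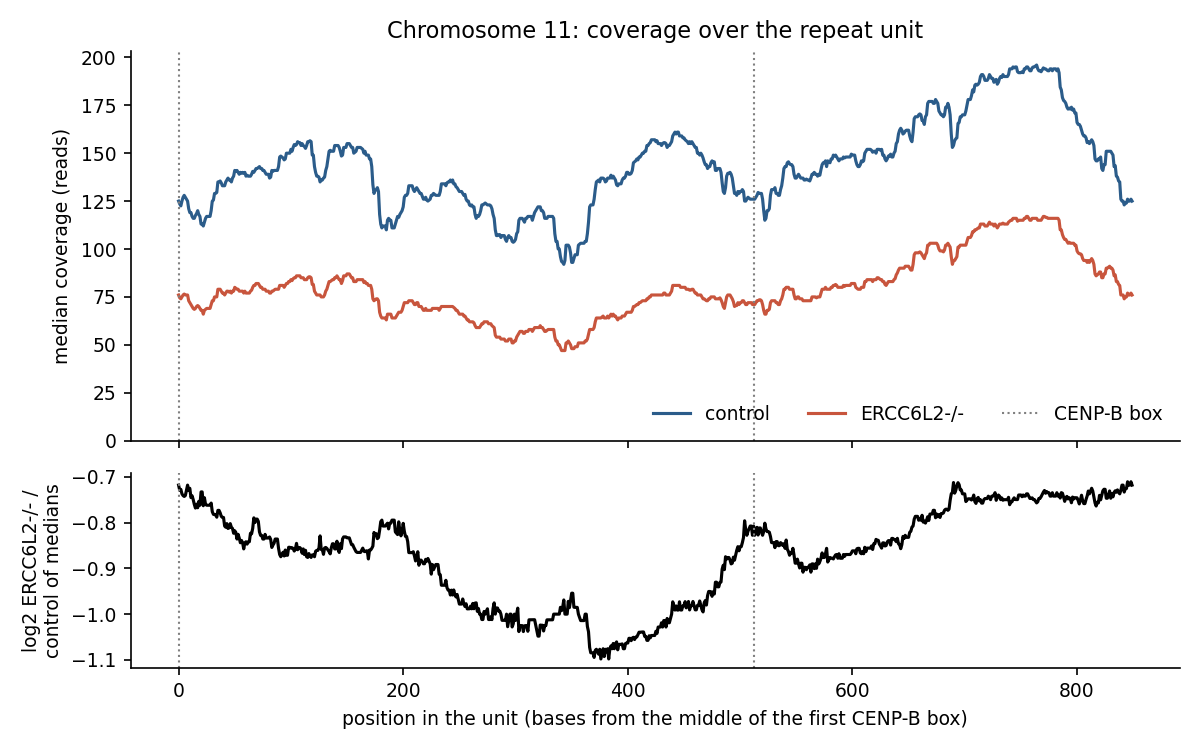
Median coverage (reads, upper panel) and log2 ratio of the medians, *ERCC6L2*-/- over control (lower panel), over 2024 aligned copies of the 850-base unit of chromosome 11, by position in bases from the middle of the first CENP-B box; dotted lines mark the boxes. Both curves rise and fall together, and the ratio moves between -1.10 and -0.71.

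Coverage around single boxes peaked before the box on both chromosomes and was lower on chromosome 17. Read in the direction of the motif, the median over 6706 boxes of chromosome 11 covered in both groups was 115 reads at the middle of the box in control and 66 reads in *ERCC6L2*-/- cells. It peaked 71 bases before the middle, at 161 and 87 reads, and was lowest 161 and 162 bases before it, at 104 and 56 reads. These values take both box sites of the unit together. In the aligned unit copies, the control median was 161 reads at 442 bases, before the second box, but 178 reads at 674 bases, after it. At 779 bases, before the first box of the next copy, that median was 194 reads. Over 900 boxes of chromosome 17 covered in both groups, the median was 40.5 and 26 reads at the middle. It peaked 67 bases before it in control, at 52 reads, and 69 bases before it in *ERCC6L2*-/- cells, at 32 reads. Its lowest values, 149 and 150 bases before the middle, were 18 and 12 reads, a deeper trough relative to the peak than on chromosome 11. The box was thus not the highest point on either chromosome. The median log2 ratio at the middle of the box was -0.78 on chromosome 11 and -0.58 on chromosome 17. Among the forms of the box on chromosome 11, it was -0.73 for the form ending in t, -0.82 for that ending in a and -0.91 for that ending in c, which had 86 copies. In the unit copy shown above, the form ending in t is the first box and that ending in a the second. Form and position in the unit were not separated. On chromosome 17, the median log2 ratio was -0.59 for tTTCGttggAaaCGGGa, -0.56 for cTTCGttcgAaaCGGGt and -0.46 for aTTCGttggAaaCGGGa. These ratios take only boxes covered in both groups. On chromosome 17, these forms had 1366, 618 and 300 covered copies in control and 534, 242 and 108 in the knockout. Over all forms, 2380 and 924 boxes were covered there, against 6728 and 6707 on chromosome 11. The ratios of chromosome 17 thus leave out most boxes covered in control. The form shared by both arrays was covered in control at 99.8% of its copies on chromosome 11 and at 22.9% on chromosome 17. The number of boxes in a window said little about its coverage, with a Spearman's rho between box number and control mean of 0.10 over windows of chromosome 11 and -0.03 over those of chromosome 17.

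How far reads can be assigned to 1 copy depends on their length. Of the 50-base words in the windows, 3.87% on chromosome 11 and 3.01% on chromosome 17 also occurred on another assembled chromosome, and 1.62% and 0.784% occurred in the other of these chromosomes. Words found only once in the assembled chromosomes made up 4.71% and 5.21%. The median word had 1476 copies on chromosome 11 and 655 on chromosome 17. With words of 100 bases the median was 145 and 166 copies, and with words of 150 bases 8 and 49 copies, and 28.2% and 20.5% of the 150-base words were found once. Between the share of 50-base words found once and the control mean of a window, Spearman's rho was -0.19 over 3254 windows of chromosome 11 and 0.34 over 902 windows of chromosome 17. The read length of the ChIP-seq and the placement of reads with several equal matches are not given in the sources used here, and the part of read placement in the uneven coverage of chromosome 17 was not tested. No window overlapped a gene of GENCODE release 44.

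Both patterns were also seen on other chromosomes. Coverage was kept over most of its length on chromosome 7, at 98.7%, and chromosome 12, at 98.5%, with log2 ratios over shared bases of -0.83 and -0.34. Length was lost on chromosome 10, of which 32.4% remained, with a ratio of -0.90. On chromosomes 1, 5 and 19, between 58.1% and 65.4% of the length remained, with ratios of -0.38, -0.62 and -0.40. The ratio over all sequences other than chromosomes 11 and 17 was -0.63, which lies between the -0.85 of chromosome 11 and the -0.57 of chromosome 17. With 1 pooled value per group, these differences between chromosomes could not be tested.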

How the data were processed

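CENP-B ChIP-seq of control and *ERCC6L2*-/- U2OS cells was analysed from the coverage signal that the authors deposited, with 1 pooled whole number of reads per base and group. Per the labels' processing notes and the study's methods, reads were checked with FastQC, trimmed with Trim Galore, mapped with Bowtie2 to GRCh38, and used to call peaks with MACS2, which were filtered by FDR and merged over the 3 replicates of a group with MSPC. Versions, scaling for depth and handling of duplicate or multiply placed reads are not given in the sources used here. A difference in depth between groups would move every ratio. The values of bases outside a group's regions entered as 0. Input libraries were not used here.

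Intervals were expanded to bases in numpy 2.4.6 and pandas 2.3.3 under Python 3.11.15. Windows of 1 kb were compared by the log2 ratio of mean coverage plus 1 read, with limits of 0.5 and 2. Bins of 100 kb, repeat units (distances between successive 24-base words, grouped within 5 bases and kept from 5% of all distances), CENP-B boxes and words of 50 bases, searched on both strands with numba 0.67.0, came from GRCh38 sequence. Spearman's rho came from scipy 1.17.1 and figures from matplotlib 3.10.9. Window calls and unit finding were tested on simulated data. Members and lists were chosen with earlier results of these data known. Windows named are the 3 with the highest control mean and the 3 lowest and highest ratios per chromosome, of which the text gives some, with the sequences between runs of unknown bases, the longest runs in 1 group only and the 3 commonest boxes. The extent of the high site on chromosome 11 and the grouping of windows by level were chosen after values were seen. Alternatives were scaling to total coverage or to shared bases of other chromosomes, a cap at the 99th percentile (760 reads), at least 10 reads per base, no windows above 1000 reads, a pseudocount of 10, windows shifted by 500 bases or of 10 kb, windows covered over at least 50%, and words of 100 and 150 bases.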

Additional observations from a re-analysis of the deposited data

How the results depend on the processing

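Scaling decided the direction. The total used is the coverage of the called regions, not library depth, so equal totals remove any reduction common to all sequences. Scaled to each group's total coverage, which adds 1.12 to every log2 ratio, the log2 ratio on chromosome 11 was 0.26 for summed coverage and 0.27 over shared bases, and on chromosome 17 it was 0.36 and 0.55. Scaled to shared bases of all other chromosomes, which adds 0.61, it was -0.25 and -0.24 on chromosome 11, and -0.15 and 0.0375 on chromosome 17. With coverage capped at 760 reads, the values were -0.81 and -0.81 on chromosome 11, and -1.17 and -0.37 on chromosome 17. With at least 10 reads per covered base they were -0.86 and -0.84, and -0.76 and -0.57. Without windows above 1000 reads they were -0.85 and -0.85, and -1.46 and -0.55. The difference between the chromosomes over shared bases, 0.28, became 0.44 with the cap, 0.27 with at least 10 reads and 0.30 without high windows. Without the 3 highest sequences of chromosome 17, an alternative chosen after seeing the data, its ratios were -0.99 and -0.48.

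Windows of chromosome 11 with a ratio under 0.5 fell from 303 to 4 with scaling to total coverage and to 60 with a pseudocount of 10. On chromosome 17 the count stayed within 1.5 times 592 under each alternative run for it. The coefficient of variation in control and *ERCC6L2*-/- cells was 0.263 and 0.269 on chromosome 11 and 5.28 and 5.73 on chromosome 17 in 10 kb windows, 0.545 and 0.575, and 1.66 and 3.23, without high windows, and 6.82 and 7.58 on chromosome 17 over windows covered over at least 50%. Words on another chromosome fell to 0.0194% at 100 bases and 0.0139% at 150 bases on chromosome 11, and to 0.123% and 0.0914% on chromosome 17. No paired analysis was possible because each deposited value pools a group's replicates, so that none of them could be left out in turn either. Depth per library is unknown, so counting error could not be given.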
